A study of Mus musculus with 12 samples.

Results

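Alpha-fetoprotein (Afp) was examined together with 6 genes tied to it in mouse liver, in 12 whole-liver RNA-seq libraries from ob/ob mice. The 7 genes are the albumin-locus genes Alb, Afp and Afm, the fetal genes Gpc3 and H19, and the Afp repressors Zhx2 and Zbtb20. They were chosen by function and by the measured contrast itself, since the values of OBOB_Fibrotic against OBOB_FLO libraries, and the spread of Afp between fibrotic libraries, were known when the set was drawn up. Their values in that contrast are therefore given as a description with no test. The set makes up 7 of the 56205 genes in the table. Of these, 6 passed the filter on low counts, as did 13416 genes in all, and H19 did not.

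The mice were young adult males of the strain B6.Cg-Lep ob/J, which lack leptin and become obese, so that every library of both groups carries this mutation. Per the labels, the 6 OBOB_FLO mice ate standard chow and the 6 OBOB_Fibrotic mice ate the same chow and received DL-ethionine, an ethyl analogue of methionine. On the dose the sources differ: the series design names 0.165% in drinking water over 2 weeks, a growth protocol names a 0.15% injection, and the study's methods describe 0.15% in the drinking water for 1 week. There was 1 poly(A) library per mouse, with 17815568 to 24814263 counts.

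"Fibrotic" is the label's word, and Col1a1, the main fibrillar collagen chain, was not called, with 23.3 ± 12.4 CPM (counts scaled to the library's normalized total, per 1000000) in fibrotic libraries against 27.1 ± 10.1 CPM without ethionine (SD, n = 6 each). Defining hepatocyte markers were present at summed levels of 8394 to 14788 CPM in fibrotic and 11377 to 15005 CPM in FLO libraries. FLO replicate 3 held 3773 counts of Xist, which is made from an inactive X chromosome, and 4 counts of the Y-linked gene Ddx3y, against its labelled male sex. Several values that rest on that library are also given without it. In whole liver, fewer cells of a type and less RNA per cell cannot be told apart.

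Albumin, alpha-fetoprotein and afamin are related plasma carrier proteins whose genes lie side by side and descend from a common ancestor. In the fetal liver both Alb and Afp are strongly transcribed, after birth Afp is silenced while Alb stays on, and Afp can return in regenerating or injured liver and in liver tumours. Zhx2 and Zbtb20 encode zinc finger repressors needed for that silencing. H19, an imprinted noncoding RNA, and Gpc3, a cell-surface heparan sulfate proteoglycan, are shut down alongside Afp and respond to Zhx2.

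On mouse chromosome 5, Alb (chr5:90460870-90476602), Afp (chr5:90490714-90508907) and Afm (chr5:90518949-90553544) follow one another in that order, as placed by RefSeq on GRCm38.p6. The other 4 genes lie elsewhere, H19 at chr7:142575530-142578146, Gpc3 at chrX:52272426-52613974, Zhx2 at chr15:57694667-57839832 and Zbtb20 at chr16:42875689-43634392. The stretches just upstream of the 3 cluster genes are shown because Afp and Afm, although adjacent, lay on opposite sides of the contrast. Each is the 250 bases before the annotated gene start, 5′ to 3′ on the plus strand of GRCm38.p6, at chr5:90460620-90460869 for Alb, chr5:90490464-90490713 for Afp and chr5:90518699-90518948 for Afm. Capitals mark GTTAAT, a core of the site bound by the liver factor HNF1, and TATAAA, the TATA box, on either strand.
Alb: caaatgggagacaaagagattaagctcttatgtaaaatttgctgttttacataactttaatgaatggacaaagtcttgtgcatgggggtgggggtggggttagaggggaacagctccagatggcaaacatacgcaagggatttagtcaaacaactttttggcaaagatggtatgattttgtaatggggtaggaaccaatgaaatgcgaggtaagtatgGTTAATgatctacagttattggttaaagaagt
Afp: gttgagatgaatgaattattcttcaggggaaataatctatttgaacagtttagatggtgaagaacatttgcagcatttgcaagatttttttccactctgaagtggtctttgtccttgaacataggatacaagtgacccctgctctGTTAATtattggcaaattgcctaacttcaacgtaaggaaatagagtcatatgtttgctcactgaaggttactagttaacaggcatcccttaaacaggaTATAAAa
Afm: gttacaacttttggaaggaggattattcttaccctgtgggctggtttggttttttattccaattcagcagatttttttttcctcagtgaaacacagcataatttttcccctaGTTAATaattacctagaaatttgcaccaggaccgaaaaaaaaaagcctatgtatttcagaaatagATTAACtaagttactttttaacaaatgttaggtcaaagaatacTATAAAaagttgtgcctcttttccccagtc

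Alb and Afp each hold 1 GTTAAT match, which starts 32 bases before the gene start in Alb and 105 bases before it in Afp. Afm holds 2 such matches, 1 on each strand. TATAAA occurs once in Afp and once in Afm, starting 7 and 30 bases before the annotated start. CCAAT, searched on both strands as were all motifs, occurs 2 times in Alb and once each in Afp, Afm, Gpc3 and Zbtb20. These counts are over windows reaching 50 bases past the start, for the 5 of the 7 genes with an entry in the RefSeq promoter table. Of all 32544 promoter windows of that length, 7.13% hold GTTAAT, 13.6% hold TATAAA and 37.4% hold CCAAT. The letters TTGNNCAA (C/EBP), TGTTTAC (FOXA) and the full HNF1 palindrome were found in none of the 5 windows, against 6.37%, 3.66% and 0.00922% of all windows. Neither GTTAAT nor TATAAA occurred in the windows of Gpc3 and Zbtb20.

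Across all genes tested, 4012 of 13416 (29.9%) were called between the groups by the edgeR quasi-likelihood test at an adjusted p of 0.01 or less and an absolute log2 fold change over 0.5. They comprised 2139 genes higher in fibrotic libraries (15.9%) and 1873 lower (14.0%). Of the 6 tested genes of the Afp set, 3 met these thresholds, Afp and Gpc3 on the higher side and Afm on the lower. The same 3 were the ones whose groups did not overlap, a property of 30.4% of all genes tested, with 15.3% wholly above and 15.1% wholly below. Since the set was drawn up from this contrast, nothing is read from these counts. The shares over all genes, and their median log2 fold change of 0.025, are also the background for the gene lists given further on. Those lists too were drawn up with earlier results of these data known, so their counts and medians are a description and no test.

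**Figure D1:**
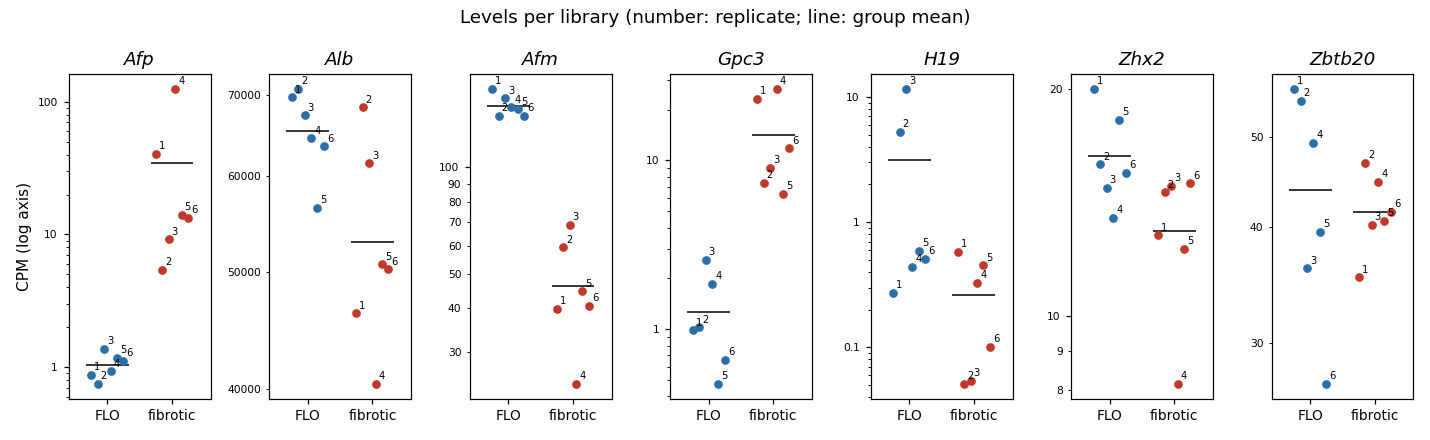
CPM (log axis, scaled separately for each gene) of the 7 genes in each of the 6 FLO (blue) and 6 fibrotic (red) libraries, with the replicate number beside each point and a line at the group mean. Afp and Gpc3 lie wholly higher and Afm wholly lower in fibrotic libraries, and fibrotic replicate 4 holds the highest Afp (125 CPM) and the lowest Alb, Afm and Zhx2.

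Afp (ENSMUSG00000054932) was near the bottom of the measured range in FLO libraries and spread widely in fibrotic ones. The 6 fibrotic libraries held 40.6, 5.4, 9.22, 125, 14 and 13.3 CPM in the order of replicates 1 to 6, from 106 to 2674 counts. The FLO libraries ranged from 0.746 to 1.37 CPM with a median of 1.02, or 13 to 32 counts. Every fibrotic library thus lay above every FLO library, with replicates 4 and 1 standing highest. The highest fibrotic level was 23.2 times the lowest, compared with 1.83 times among FLO libraries.

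Afp averaged 34.6 ± 46.1 CPM with ethionine and 1.04 ± 0.228 CPM without it (SD, n = 6 each), and the fitted log2 fold change was 5.04 with a standard error (SE) of 0.89. Only 12 tested genes had a larger fitted increase. The size rested in part on fibrotic replicate 4. Without it the fibrotic mean was 16.5 ± 13.9 CPM (SD, n = 5) and the log2 fold change 3.98, and without both replicates 1 and 4 these were 10.5 ± 4.01 CPM (SD, n = 4) and 3.33.

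Alb (ENSMUSG00000029368) encodes the most abundant plasma protein and was by far the most highly expressed of the 7 genes. Its fibrotic levels ran from 40385 to 68432 CPM with a median of 50508, and its FLO levels from 56482 to 70845 CPM with a median of 65942. The groups overlapped through fibrotic replicates 2 and 3, and replicates 4 and 1 were the lowest of all 12 libraries. Means were 52922 ± 10280 and 65410 ± 5223 CPM (SD, n = 6 each), with a log2 fold change of -0.31 (SE 0.14) that was not called. Alb alone took 5.57 ± 0.679% of all counts in fibrotic and 6.15 ± 0.519% in FLO libraries (SD, n = 6 each).

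Set against Alb in the same library, a ratio that needs no scaling between libraries, Afp reached 78.9 to 3099 counts per 1000000 Alb counts in fibrotic livers, with a median of 271. In FLO livers the ratio lay between 10.5 and 21, with a median of 16. The groups did not overlap on this measure either. The ratio of the group medians was 16.9, whereas that of the means (791 and 16.1) was 49.3, since fibrotic replicate 4 alone stood at 3099 and replicate 1 at 879. Without replicate 4 the fibrotic mean was 330.

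Afm (ENSMUSG00000029369) encodes afamin, a vitamin E-binding glycoprotein secreted by hepatocytes, and lay lower in every fibrotic library. Its fibrotic levels were 24.3 to 68.7 CPM with a median of 42.5, and its FLO levels 140 to 167 CPM with a median of 147. FLO libraries were tightly grouped, and fibrotic replicate 4 was again the lowest. Means were 46.2 ± 15.7 and 149 ± 10.6 CPM (SD, n = 6 each), a log2 fold change of -1.69 (SE 0.19). The adjacent genes Afp and Afm therefore stood at opposite ends of the contrast, with Alb between them.

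Per kilobase of longest transcript, Alb, Afm and Afp had mean levels of 32158, 60.6 and 0.503 CPM per kb in FLO livers and 26019, 18.7 and 16.8 in fibrotic livers. The fibrotic mean of Afp was carried by replicates 4 and 1, and its median in fibrotic livers was 6.63 CPM per kb against 17.2 for Afm. In replicates 2, 3, 5 and 6, Afp stood at 5.4, 9.22, 14 and 13.3 CPM where Afm stood at 59.3, 68.7, 44.5 and 40.5 CPM. Afp was thus below Afm in these 4 fibrotic livers and above it in replicate 4 (125 against 24.3 CPM), with replicate 1 about level (40.6 and 39.7 CPM).

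Beyond the cluster, Cox18, a mitochondrial insertase gene whose leftmost base lies 276.0 kb before that of Afp, was lower in fibrotic libraries, with a log2 fold change of -0.83 (SE 0.15, edgeR adjusted p = 0.000229). Gc, the vitamin D-binding protein gene and a more distant albumin relative on the same chromosome, had a log2 difference of -0.43 (SE 0.10, edgeR adjusted p = 0.00186), short of the fold threshold. Ankrd17, which lies between Cox18 and Alb, was at 0.25 (SE 0.16, edgeR adjusted p = 0.204), and Rassf6 on the far side of Afm at -0.52 (SE 0.20, edgeR adjusted p = 0.0372). Adamts3 was under the low-count filter. Among the 4 tested genes of the locus list other than Alb, Afp and Afm, 1 was thus lower and 0 were higher, with a median log2 fold change of -0.47, against 0.025 over all tested genes.

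Gpc3 (ENSMUSG00000055653) was higher in every fibrotic library. Fibrotic levels ran from 6.34 to 26.5 CPM with a median of 10.4, and FLO levels from 0.474 to 2.57 CPM with a median of 1.01. As with Afp, fibrotic replicates 4 (26.5 CPM) and 1 (23.2 CPM) were the highest, while the remaining 4 fibrotic libraries lay between 6.34 and 11.8 CPM. Means were 14 ± 8.63 and 1.26 ± 0.797 CPM (SD, n = 6 each), with a log2 fold change of 3.43 (SE 0.47). The spread within fibrotic libraries, with the highest 4.18 times the lowest, was narrower than that of Afp. FLO replicate 3 was the highest FLO library, and without it the log2 fold change was 3.78.

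H19 (ENSMUSG00000000031) was close to undetected in most libraries and had its highest values in 2 FLO libraries. The fibrotic libraries held 12, 1, 1, 7, 9 and 2 counts in replicate order, and FLO replicates 1, 4, 5 and 6 held 5, 9, 10 and 10. FLO replicates 2 and 3 stood apart with 92 and 272 counts, or 5.28 and 11.6 CPM, against a fibrotic range of 0.0509 to 0.582 CPM. The groups overlapped, and apart from those 2 libraries no library exceeded 0.592 CPM.

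The means of H19 were 0.261 ± 0.227 CPM in fibrotic and 3.12 ± 4.6 CPM in FLO libraries (SD, n = 6 each), and 0.454 ± 0.135 CPM (SD, n = 4) in FLO libraries without replicates 2 and 3. In a fit with no low-count filter the log2 fold change was -3.55 (SE 1.15) and was not called, where 4153 of 24871 genes (16.7%) were. It was -2.39 without FLO replicate 3 and -0.77 without both replicates 2 and 3. Des, a muscle and stellate cell filament gene, was also high in those libraries, at 12.9 and 22.3 CPM against 5.96 to 6.96 CPM in the other 4 FLO libraries. It was chosen after its values were seen, and related genes did not set both libraries apart in this way. The smooth muscle gene Acta2 was 6.66 and 13.4 CPM in FLO replicates 2 and 3, and 4.81 to 14.7 CPM in the other 4. The stellate markers, Des among them, summed to 110 and 129 CPM in replicates 2 and 3, and 77 to 120 CPM in the other 4. The summed mesothelial and smooth muscle markers were 16 and 31.2 CPM in replicates 2 and 3, and 12.3 to 24.7 CPM in the other 4. Replicate 3 thus had the highest FLO sum for both of these lists, whereas replicate 2 did not. In fibrotic libraries the mesothelial and smooth muscle sum was 5.9 to 14.1 CPM. The part of these markers in the H19 values was not tested.

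Zhx2 (ENSMUSG00000071757), the repressor whose loss of function keeps Afp on in adult liver, was not called between the groups. Fibrotic levels were 8.14 to 15 CPM with a median of 13.7, and FLO levels 13.5 to 20 CPM with a median of 15.7. The groups overlapped, though all 6 fibrotic libraries lay below the FLO median. Fibrotic replicate 4, with the most Afp, had the least Zhx2 of all 12 libraries. Means were 13 ± 2.62 and 16.3 ± 2.39 CPM (SD, n = 6 each), a log2 fold change of -0.33 (SE 0.14).

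Zbtb20 (ENSMUSG00000022708), the second repressor, ranged from 35.3 to 46.9 CPM in fibrotic libraries with a median of 41. In FLO libraries it ranged from 27.1 to 56.3 CPM with a median of 44.4, so that the fibrotic values lay inside the FLO range. Means were 41.5 ± 4.02 and 43.8 ± 11.5 CPM (SD, n = 6 each). The log2 fold change was -0.08 (SE 0.15), not called, and its sign turned to 0.01 without FLO replicate 1.

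By level per kilobase in fibrotic livers the order was Alb, Afm (18.7 CPM per kb), Afp (16.8), Gpc3 (6.34), Zhx2 (2.96), Zbtb20 (1.54) and H19 (0.114). In FLO livers it was Alb, Afm (60.6), Zhx2 (3.73), Zbtb20 (1.63), H19 (1.37), Gpc3 (0.57) and Afp (0.503). These orders follow group means, and several neighbours had overlapping ranges per kb. In fibrotic livers the overlapping neighbours were Afm and Afp, Afp and Gpc3, and Gpc3 (2.86 to 12 CPM per kb) and Zhx2 (1.86 to 3.44). In FLO livers they were Zbtb20 and H19, H19 and Gpc3, and Gpc3 and Afp, and the position of H19 there rested on FLO replicates 2 and 3.

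Variation with Afp from mouse to mouse was then compared within each group. The choice of the set had used the spread of Afp between fibrotic libraries, so the fibrotic relations rest on values known beforehand and their p-values are no independent evidence. Pearson's r and Spearman's rho were computed on log2 CPM over the 6 libraries of a group, for 8 partners in each group, giving 16 relations. The smallest two-sided exact permutation p that 6 libraries allow is 0.00278. After Benjamini-Hochberg adjustment over the 16 relations, 0 reached an adjusted p of 0.05, for r or for rho.

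Within fibrotic libraries Alb was lower where Afp was higher, with r = -0.93 (exact permutation p = 0.0111, adjusted p = 0.104) and rho = -0.94 (exact permutation p = 0.0167, adjusted p = 0.267). For Afm, r was -0.91 (exact permutation p = 0.0139, adjusted p = 0.104) and rho -0.89 (exact permutation p = 0.0333, adjusted p = 0.267). Without replicates 4 and 1, the 2 libraries farthest from the median of Afp, r was -0.97 for Alb and -0.70 for Afm. Both cluster neighbours of Afp thus kept the negative sign, although neither relation passed the correction. A negative r was not limited to the cluster. As a description, the secreted hepatocyte proteins listed further on had r = -0.61 by their mean log2 CPM. Among them Trf was at -0.88 and Ambp and Serpinc1 each at -0.78, whereas Apoa1 was at 0.08 and Fgb at 0.89.

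Gpc3 ran with Afp across the fibrotic libraries at r = 0.89 (exact permutation p = 0.0194, adjusted p = 0.104), with rho = 0.66 (exact permutation p = 0.175, adjusted p = 0.28). This rested on replicates 4 and 1, without which r was 0.21. Zhx2 had r = -0.88 (exact permutation p = 0.0347, adjusted p = 0.139) and rho = -0.71 (exact permutation p = 0.136, adjusted p = 0.28), and r was -0.44 without the same libraries. H19 had r = 0.68 (exact permutation p = 0.144, adjusted p = 0.33) and rho = 0.83 (exact permutation p = 0.0583, adjusted p = 0.28) on at most 12 counts, with r unchanged at 0.68 without them. Zbtb20 had r = -0.19 (exact permutation p = 0.717, adjusted p = 0.814) and rho = -0.26 (exact permutation p = 0.658, adjusted p = 0.752), while r was -0.84 without replicates 4 and 1.

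Within FLO libraries, where Afp covered only 0.746 to 1.37 CPM on 13 to 32 counts, r was -0.54 for Alb (exact permutation p = 0.29, adjusted p = 0.464; rho = -0.66, exact permutation p = 0.175, adjusted p = 0.28) and 0.12 for Gpc3 (exact permutation p = 0.814, adjusted p = 0.814; rho = 0.03, exact permutation p = 1, adjusted p = 1). The strongest of the FLO relations was with Zbtb20 at r = -0.75 (exact permutation p = 0.0833, adjusted p = 0.222) and rho = -0.77 (exact permutation p = 0.103, adjusted p = 0.28). Afm, Zhx2 and H19 had r of 0.13, -0.14 and 0.21 (exact permutation p = 0.804, 0.781 and 0.632; adjusted p = 0.814 for each) and rho of 0.09, -0.31 and 0.43 (exact permutation p = 0.919, 0.564 and 0.419; adjusted p = 0.981, 0.694 and 0.559). Without FLO replicates 2 and 3, the farthest from the median of Afp, r was -0.88 for Alb, -0.78 for Zbtb20, -0.80 for Gpc3, -0.77 for Afm, -0.02 for Zhx2 and 0.91 for H19. Without FLO replicate 3 alone, r was -0.90 for Alb, -0.78 for Zbtb20, -0.63 for Gpc3, -0.15 for Afm, 0.09 for Zhx2 and -0.59 for H19. Whether these relations differ between the groups was not tested.

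**Figure D2:**
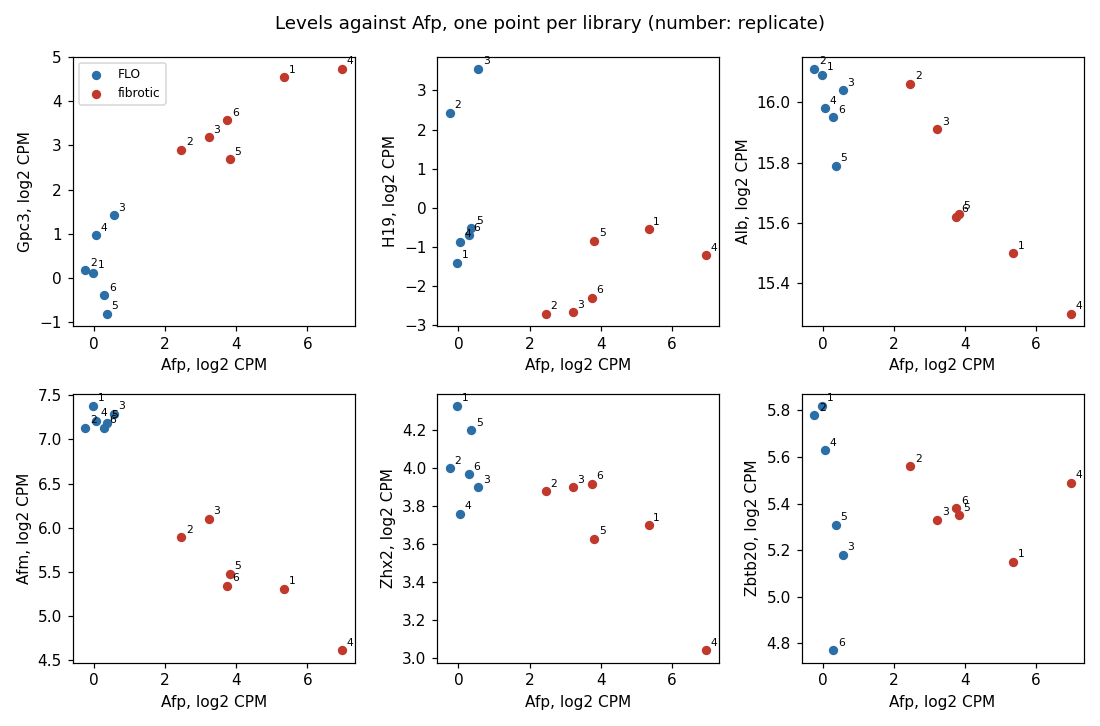
Log2 CPM of Gpc3, H19, Alb, Afm, Zhx2 and Zbtb20 against log2 CPM of Afp, 1 point per library with its replicate number, FLO in blue and fibrotic in red. Across the 6 fibrotic points Alb (r = -0.93) and Afm (r = -0.91) are lower where Afp is higher, and Gpc3 (r = 0.89) is highest in replicates 1 and 4.

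Markers of some other cell types differed between the groups. The summed ductular markers, which cholangiocytes and liver progenitor cells express, were 106 to 326 CPM in fibrotic and 51.2 to 95.9 CPM in FLO libraries, and 6 of the 8 tested members were called higher (3 to 7 on leaving out 1 library). Without FLO replicate 3, Krt7 gained a call (log2 fold change 1.64, edgeR adjusted p = 0.00383) and Spp1 lost its call (1.04, edgeR adjusted p = 0.0148). Prom1 then stood at 3.86, against 2.97 with that library. The library with the most ductular signal was fibrotic replicate 5 (326 CPM), where Afp was 14 CPM, and replicates 4 and 1 had 234 and 188 CPM. Within fibrotic libraries the mean log2 CPM of these markers had r = 0.63 with Afp (exact permutation p = 0.181, adjusted p = 0.361) and rho = 0.66 (exact permutation p = 0.175, adjusted p = 0.28), and r = 0.49 without replicates 4 and 1. In FLO libraries r was 0.74 (exact permutation p = 0.0806, adjusted p = 0.222) and rho 0.71 (exact permutation p = 0.136, adjusted p = 0.28). There r was 0.87 without replicates 2 and 3, but 0.47 without replicate 3 alone.

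Kupffer cell and macrophage markers summed to 238 to 463 CPM in fibrotic and 199 to 221 CPM in FLO libraries, with 5 of 8 called higher (4 or 5 on leaving out 1 library), and were highest in fibrotic replicates 4 (463 CPM) and 1 (411 CPM), the same libraries as Afp. Proliferation genes had r = 0.60 with Afp in fibrotic libraries (exact permutation p = 0.228, adjusted p = 0.405; rho = 0.77, exact permutation p = 0.103, adjusted p = 0.28; r = 0.79 without replicates 4 and 1). In FLO libraries their r was -0.48 (exact permutation p = 0.335, adjusted p = 0.487), with rho = -0.60 (exact permutation p = 0.242, adjusted p = 0.352). This r was -0.83 without replicates 2 and 3, but -0.14 without replicate 3 alone. Of the 10 proliferation genes, 1 was higher (Mcm2) and 5 were lower (Ccnb1, Ccnb2, Birc5, Mki67 and Mcm5) in fibrotic livers, where Afp was high. As a description, the mean log2 CPM of the Kupffer cell and macrophage list had r = 0.88 with Afp in fibrotic libraries, and that of the hepatocyte list r = -0.36. The stellate, endothelial, mesothelial and smooth muscle, erythroid, and lymphoid and neutrophil lists had r of 0.57, 0.16, 0.14, -0.13 and -0.44. The part of any of these cell types in the Afp levels was not tested.

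Ranked over the 11204 tested genes whose log2 CPM averaged 1 or more, the genes closest to Afp across the 6 fibrotic libraries were Cd5l (r = 0.996), Cops6 (0.995), Zfyve27 (0.993), Smad7 (0.993) and Pilra (0.990). Cd5l encodes a scavenger receptor-like protein secreted by macrophages, and it ranged from 58.4 CPM in the library with least Afp to 146 CPM in that with most. The most opposed were Cpt2 (-0.995), a mitochondrial fatty acid oxidation gene, and Eif4ebp2, Nectin1, Psmd9 and Apopt1 (each -0.993). These are descriptions over 6 points that share the spread of replicates 4 and 1. An absolute r of 0.9 or more with Afp was held by 826 of the 11204 genes (7.37%), and 453 of them had a larger absolute r than Alb, 725 a larger one than Afm.

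Most other genes listed as Zhx2 targets were higher in fibrotic livers, as Afp and Gpc3 were, and 1 was lower. The list gives no direction of Zhx2 action for each gene, so nothing about Zhx2 is read from the signs. Of 6 such genes besides the Afp set, 4 were called higher, 1 lower and 1 was not called, with a median log2 fold change of 1.47. Cyp2a4, a steroid-hydroxylating cytochrome P450, had a log2 fold change of 2.69 (SE 0.34, edgeR adjusted p = 2.11e-05). Lpl, lipoprotein lipase, was at 1.64 (SE 0.36), Cyp4a12a at 1.50 (SE 0.42) and the fatty acid elongase Elovl3 at 1.28 (SE 0.34), while the urinary protein gene Mup20 was at -1.22 (SE 0.35).

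Cyp4a12b, at 1.45 (SE 0.68), was not called, which rested on FLO replicate 5. That library held 81.6 CPM against 4.71 to 11.3 CPM in the other 5 FLO libraries and 35.1 to 68.6 CPM in fibrotic ones, and without it the log2 fold change was 2.79 (SE 0.22, edgeR adjusted p = 7.77e-07). Leaving out 1 library ended the call of Cyp4a12a in 9 of 12 fits, of Elovl3 in 8 and of Mup20 in 10, while the signs were kept, so that 2 to 5 of the 6 targets were called higher and 0 or 1 lower. Without FLO replicate 3, Elovl3 was at 1.17 (SE 0.35, edgeR adjusted p = 0.0139) and Cyp4a12a at 1.50 (SE 0.46, edgeR adjusted p = 0.0185), neither called. Cyp2a4, the Cyp4a12 pair and Mup20 have near-identical copies in the genome, so their separate values are uncertain. Within fibrotic libraries Lpl ran with Afp (r = 0.94) but Elovl3 (r = -0.97) and Cyp4a12a (r = -0.95) ran opposite to it, a description over 6 libraries. 

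Among the other repressors listed for Afp, Trp53, which encodes p53, was higher in fibrotic livers by a log2 fold change of 0.72 (SE 0.09, edgeR adjusted p = 1.11e-05), and Zhx1 and Zhx3, the relatives of Zhx2, were at -0.28 (SE 0.09) and 0.47 (SE 0.10) and not called. Trp53 had r = 0.99 with Afp across the fibrotic libraries, while 21 genes had a larger absolute r. Of the 13 liver factors listed as activators of Afp, 2 were higher, namely Cebpb at 0.98 (SE 0.15, edgeR adjusted p = 6.26e-05) and Rora at 0.83 (SE 0.16, edgeR adjusted p = 0.000438). Another 2 were lower, Onecut1 at -0.89 (SE 0.22, edgeR adjusted p = 0.00361) and Nfic at -0.67 (SE 0.12, edgeR adjusted p = 0.00023). The median of the activators was 0.09, and 9 of them were not called. Without FLO replicate 4 the call of Onecut1 was lost (-0.73, edgeR adjusted p = 0.0103), and Zhx3 was called without fibrotic replicate 5 (0.52) or FLO replicate 5 (0.51).

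H19's imprinted relatives were in part called higher and in part not called, with 0 called lower. Of 11 listed, 7 were tested and 3 were higher, the cell cycle inhibitor Cdkn1c at 1.80 (SE 0.23, edgeR adjusted p = 1.24e-05), the adaptor gene Grb10 at 0.92 (SE 0.26, edgeR adjusted p = 0.00715) and the scavenging receptor gene Igf2r at 0.58 (SE 0.12, edgeR adjusted p = 0.000723). Igf2, the fetal growth factor gene beside H19, was at -0.08 (SE 0.36) on a mean of 0.702 ± 0.37 CPM in fibrotic and 0.74 ± 0.245 CPM in FLO livers (SD, n = 6 each). Leaving out 1 library ended the call of Grb10 in 6 of 12 fits. Dlk1, Meg3, Peg10 and Plagl1 were under the low-count filter, as was H19. Igf2 lay below 1 CPM on average in both groups, as H19 did in fibrotic livers.

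Oncofetal genes, which fetal tissue and tumours express, were in part higher and in part near the detection limit. Besides Afp, Gpc3 and the untested H19, 9 of 18 were tested, 4 were higher and 0 lower, with a median of 0.68. The Golgi glycoprotein gene Golm1 was at 3.19 (SE 0.21, edgeR adjusted p = 3.5e-08), the trypsin inhibitor Spink1 at 2.60 (SE 0.23, edgeR adjusted p = 3.34e-07), the pyruvate kinase gene Pkm at 1.58 (SE 0.23, edgeR adjusted p = 5.54e-05) and Sox4 at 1.29 (SE 0.16, edgeR adjusted p = 7.31e-06). Golm1 reached 16 to 35.8 CPM in fibrotic against 1.66 to 3.85 CPM in FLO libraries, so its groups did not overlap and its fibrotic spread was narrower than that of Afp. The RNA-binding fetal genes Igf2bp1 and Lin28a had 0 counts in all 12 libraries, and Igf2bp3, Lin28b, Hmga2, Mdk, Sox11, Sall4 and Trim71 were under the filter.

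Among the 4 tested glypicans, Gpc3 was the only one called higher. Gpc1 was lower at -2.00 (SE 0.19, edgeR adjusted p = 8.08e-07), from 38.4 ± 9.34 CPM in FLO to 9.6 ± 2.4 CPM in fibrotic livers (SD, n = 6 each). Gpc4, the neighbour of Gpc3 on the X chromosome, was at 0.05 (SE 0.08) and Gpc6 at -0.09 (SE 0.27), neither called, while Gpc2 and Gpc5 were under the filter. In fibrotic livers Gpc3 (14 CPM) exceeded Gpc1 (9.6 CPM) in mean CPM, the reverse of FLO livers (1.26 and 38.4 CPM), without correction for transcript length. The fibrotic ranges overlapped, at 6.34 to 26.5 CPM for Gpc3 and 7.04 to 13.4 CPM for Gpc1. The fibrotic mean of Gpc3 was carried by replicates 4 and 1, and without them it was 8.65 ± 2.38 CPM (SD, n = 4).

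Other secreted proteins of hepatocytes moved in both directions, as the albumin cluster did. Of 10, 3 were higher, namely fetuin-A (Ahsg, 1.04, SE 0.13), hemopexin (Hpx, 1.02, SE 0.17) and a fibrinogen chain (Fgb, 0.82, SE 0.14). Another 4 were lower, Apoa1 (-1.68, SE 0.16), Ambp (-0.92, SE 0.11), Rbp4 (-0.80, SE 0.11) and Apoh (-0.67, SE 0.13), while Trf, Ttr and Serpinc1 were not called. Afm, at -1.69, lay beside Apoa1 at the lower end, and Alb, at -0.31, near the list's median of -0.25.

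**Figure D3:**
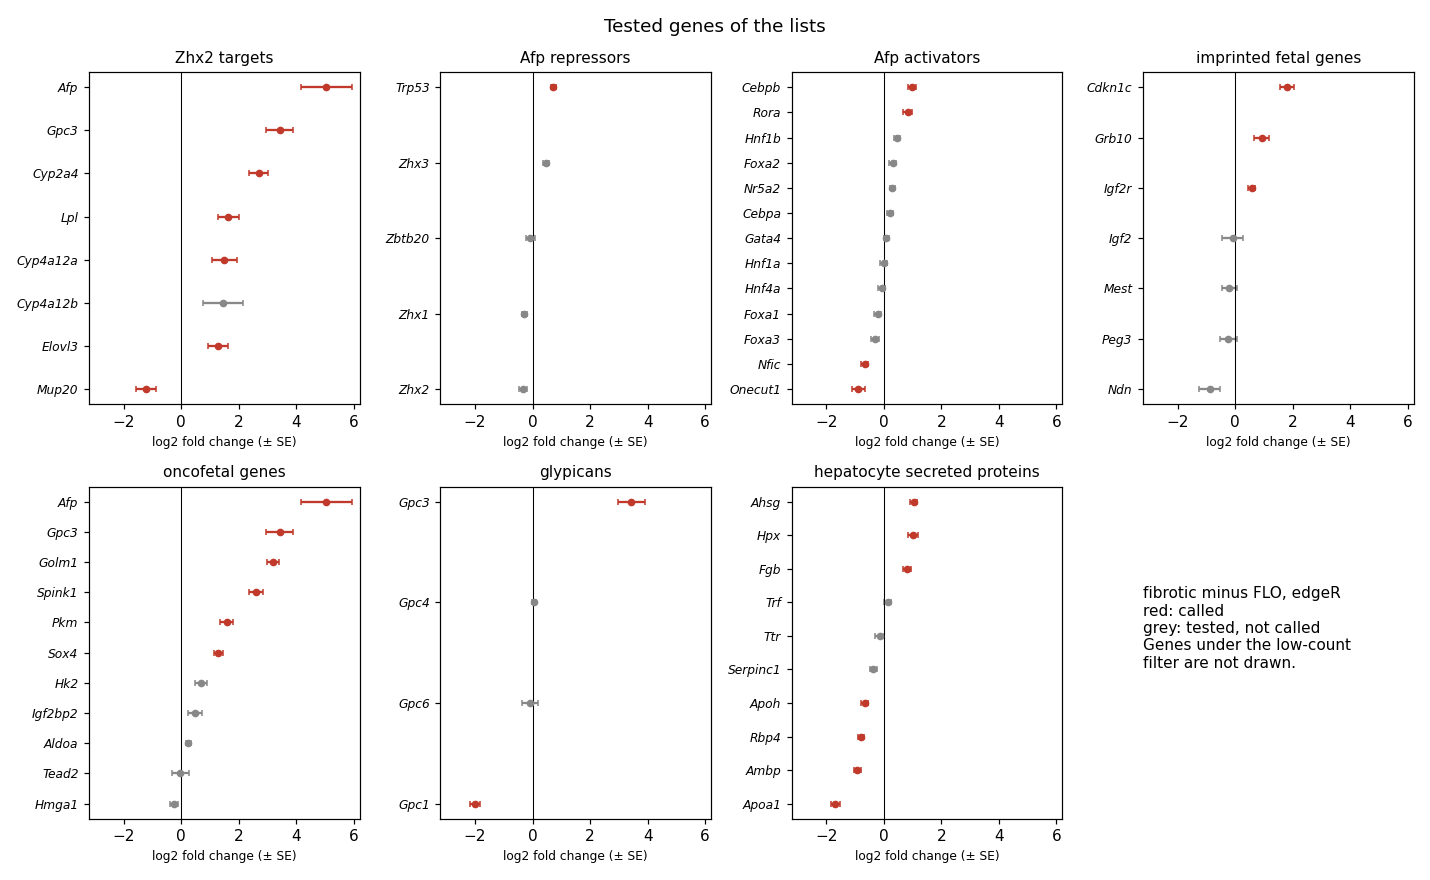
Log2 fold change (fibrotic minus FLO, bars ± SE of the edgeR fit) of every tested gene in 7 lists around Afp, red where called and grey where not. Afp (5.04) and Gpc3 (3.43) head the Zhx2 and oncofetal lists, and the repressors Zhx2 (-0.33) and Zbtb20 (-0.08) were not called.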

How the data were processed

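Poly(A) RNA from whole liver was sequenced, 1 library per mouse. The authors deposited 1 table for the series, which holds raw counts of each Ensembl gene, unscaled. The submitters' processing notes name bcl2fastq, STAR 2.7.3a and mm10. The annotation and the use of strand for these libraries are not given in the sources used here, so antisense reads cannot be told apart. Symbols came from a name table that matched 51745 of 56205 identifiers, and the unmatched ones held 0.0587% of counts. Of the identifiers, 2122 start with ENSMUSG00002 and may stem from a later annotation, so coordinates and promoters are those of RefSeq on GRCm38.p6. Lengths are of the longest GENCODE M21 transcripts.

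Group and replicate were read from the sample titles. The members and lists were chosen with earlier results of these data known. Genes were tested across all 12 libraries by the quasi-likelihood test of edgeR 4.0.16 under R 4.3.3 (robust, TMM, filterByExpr, Benjamini-Hochberg) and called at the thresholds of the study's methods, an adjusted p of 0.01 or less and an absolute log2 fold change over 0.5. The fit was tested on simulated data. The SE is the absolute log2 fold change divided by the square root of F. CPM use TMM library sizes, and log2 CPM a prior count of 2. SDs include counting error. Libraries of a group all differed by more than sampling noise (smallest chi-square per degree of freedom 10.3). Where a symbol had more than 1 identifier, that with most counts was used. Named were the 7 genes, Xist, up to 4 called genes per list and direction, genes under the filter, and the 5 genes most and least correlated with Afp. Col1a1, Des, Ddx3y and uncalled genes with values were named beyond this rule after their values were seen.

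Alternatives were RLE and upper quartile scaling, TMM after removing the 50 most abundant genes, no filter, at least 10 counts in every library, a fit that was not robust, DESeq2 1.42.0, limma-voom (limma 3.58.1), a replicate block, an FDR of 0.05 with no minimum fold change, and leaving out each library. Leaving out FLO replicates 2 and 3, or fibrotic replicates 1 and 4, was added after the data were examined.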

Additional observations from a re-analysis of the deposited data

Results flagged for a closer look

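Zhx2 in fibrotic replicate 4 stood far below the other fibrotic libraries, at 8.14 CPM against 12.3 to 15 CPM. On the log2 scale its gap to the nearest library was 0.67 of the group's whole range, past the limit of Dixon's test for 6 samples. Of 16 groups of 6 libraries examined (the 7 genes and the ratio of Afp to Alb, in each group), 1 passed the limit, and chance gives about 0.8. The same library held the highest Afp (125 CPM) and Gpc3 (26.5 CPM) and the lowest Alb and Afm.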

How the results depend on the processing

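As a description, since the contrast chose these genes, Afp, Gpc3 and Afm met the call thresholds and Alb, Zhx2 and Zbtb20 did not in each alternative that could be fitted. Gpc3 has under 10 counts in 1 library and H19 is under the filter, so neither could be fitted with at least 10 counts in every library, and H19 only without the filter or in DESeq2. The log2 fold change of Afp was 4.20 with limma-voom, against 5.04. For H19, DESeq2 gave -3.60, and the unfiltered fit at an FDR of 0.05 with no minimum fold change gave -3.55, both called. Without FLO replicates 2 and 3 the unfiltered fit gave -0.77 for H19, not called. In the filtered fit of 13416 genes, which leaves out H19, the same relaxed threshold called 6994 genes, 3662 higher and 3332 lower. DESeq2 called 4654 at the main thresholds. Scalings moved the counts of calls by less than 1.5 times, and so did leaving out FLO replicates 2 and 3 (3626 genes) or fibrotic replicates 1 and 4 (3626 genes). The cause of these changes was not tested.

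Leaving out 1 library gave 3798 to 4093 called genes (2028 to 2223 higher, 1750 to 1889 lower), 15 to 19 higher and 13 to 15 lower genes of the lists, and log2 fold changes of 3.98 to 5.27 for Afp, -0.39 to -0.23 for Alb, -1.84 to -1.56 for Afm, -3.94 to -2.39 for H19, 3.16 to 3.78 for Gpc3, -0.39 to -0.22 for Zhx2 and -0.19 to 0.01 for Zbtb20. The correlations with Afp that changed sign on leaving out 1 library were with Zbtb20 in fibrotic libraries (-0.94 to 0.23; 0.12 without replicate 1 and 0.23 without replicate 2), and in FLO libraries with H19 (-0.59 to 0.82; -0.59 without replicate 3), Gpc3 (-0.63 to 0.44; -0.63 without replicate 3), Afm (-0.27 to 0.67; -0.27 without replicate 2 and -0.15 without replicate 3) and Zhx2 (-0.34 to 0.16; 0.16 without replicate 1 and 0.09 without replicate 3). Without the 2 farthest libraries, those with Gpc3 (-0.80) and Afm (-0.77) in FLO libraries did so too. With 5 libraries the smallest exact p is 0.0167.

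The replicate numbers are not stated to pair the mice. Same-numbered libraries deviated with correlations of -0.162 to 0.104, 1 of 6 pairs was over 0.1, and 0 libraries correlated best with their own number. Such correlations cannot exclude a weak pairing. With the replicate number as a block, 3780 genes were called (1994 higher, 1786 lower), and the log2 fold changes were 4.35 for Afp, 3.42 for Gpc3, -1.76 for Afm, -0.32 for Alb, -0.35 for Zhx2 and -0.04 for Zbtb20, with no call of these 6 genes changed. The lists then held 15 higher and 15 lower genes, against 18 and 14.

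Depth limits Afp in FLO libraries (13 to 32 counts) and H19 outside FLO replicates 2 and 3 (1 to 12 counts), and 6 libraries a group limit the correlations.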
